A study of Mus musculus with 25 samples.

Results

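Mitochondrial ribosomal proteins are the protein part of the mitoribosome, the ribosome inside mitochondria. The mitoribosome translates the few messenger RNAs of the mitochondrial genome, all of which encode core subunits of the respiratory chain and ATP synthase. Its proteins are themselves encoded in the nucleus, translated on cytosolic ribosomes and imported, with Mrpl symbols for the large subunit and Mrps symbols for the small one. Podocytes are the epithelial cells that wrap the glomerular capillaries, and mutations of alpha-actinin 4, the actin crosslinker encoded by Actn4, cause an inherited podocyte disease in humans. The genes described here were chosen by symbol, as all genes named Mrpl or Mrps with a number and at most 1 letter, each represented by the single-symbol probe set with the highest mean over the 25 arrays. There were 73 such genes among 17097 genes with a usable probe set, 46 of them Mrpl and 27 Mrps. RefSeq lists 78 genes with such symbols, and Mrpl22, Mrpl45, Mrpl51, Mrps18c and Mrps28 were not analysed here. All 73 passed the filter on dim genes, which left 11968 genes for testing.

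RNA was isolated by translating ribosome affinity purification (TRAP) and profiled on Affymetrix perfect-match arrays. All mice, knock-in and wild type, carried the Col1a1-eGFPL10a transgene, a GFP fusion of the cytosolic ribosomal protein L10a placed behind the collagen1α1 promoter and enhancer, on a C57/129sv background with sex labelled unknown. The knock-in mice (KI) also carried the Actn4 point-mutant allele tm1.1Plk, with the cross given as Actn4+/tm1.1Plk, and the wild types (WT) did not. Groups were KI and WT at 2 weeks (4 and 4 arrays), at 5 weeks (4 and 5 arrays) and at 44 weeks (4 and 4 arrays), which the labels also give as postnatal days 14, 35 and 300. A transcript that gained or lost signal in this material was more or less abundant in the purified RNA relative to the rest of the RNA on the array. A change in the number of tagged cells of a type, a change in RNA per cell and a change in RNA carried over from untagged cells cannot be told apart. The mean signal of 3 Y-linked genes was high (7.26 to 8.39) on 1 of 4 KI and 4 of 4 WT arrays at 2 weeks, on 3 of 4 KI and 2 of 5 WT arrays at 5 weeks and on 3 of 4 KI and 1 of 4 WT arrays at 44 weeks, and low (2.89 to 3.69) on the rest. The groups compared thus differed in this signal, and the arrays of the 5 groups that hold both levels cannot all be repeats of 1 animal. Beyond that, nothing in the labels says that each array is a separate animal, and the p-values cover only array-to-array spread within groups, part of which may be technical.

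Podocyte markers were strong on every array, with a mean over 8 detected markers between 10.6 and 11.5 on the log2 scale. Markers of the proximal tubule were also present, with a mean over 10 genes between 9.09 and 10.9, so the material was not podocyte RNA alone. The Actn4 gene had no named probe set and the genotype was not checked on it. At 5 weeks the mean over proximal and distal tubule markers was 9.09 to 9.30 in KI, against 7.98 to 8.80 in WT, and WT at 2 weeks had a similar 8.09 to 8.69. The actin 3′ minus 5′ signal, a measure of RNA integrity and amplification, was 0.99 to 1.33 log2 in KI at 5 weeks, against 1.47 to 1.63 in WT, without overlap. Array 10 of the WT group at 5 weeks differed from its 4 companions in RNA measures, with a Gapdh 3′ minus 5′ signal of 1.91 log2 against 0.98 to 1.15 and an 18S rRNA 5′ signal of 9.97 against 8.14 to 8.71, where KI at that age had 9.64 to 10.5. These arrays enter every comparison below that involves WT at 5 weeks, so results are also given without some of them.

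The mitoribosomal genes changed most in arrays of one group, WT at 5 weeks. The mean log2 signal over the 73 genes was 9.80, 9.89, 9.89 and 9.91 on the KI arrays at 2 weeks and 9.74, 9.79, 9.93 and 9.97 on the WT arrays at that age. At 5 weeks it was 9.79, 9.81, 9.91 and 9.92 in KI, against 9.42, 9.39, 9.65, 9.52 and 9.82 on WT arrays 6 to 10. At 44 weeks it was 9.64, 9.65, 9.80 and 9.83 in KI and 9.56, 9.73, 9.79 and 9.83 in WT. WT arrays 6, 7 and 9 at 5 weeks lay below every other array, array 8 lay within the range at 44 weeks, and array 10 lay at the level of KI. The small-subunit genes spread more widely in that group than the large-subunit ones, with an SD of 0.24 against 0.14 (n = 5). WT at 5 weeks had the lowest of the 6 group means for 38 of the 73 genes, or 52.1%, where 27.4% of all genes tested had their lowest mean there. Within the group, array 10 was the highest array for 42 of the 73 genes and array 7 the lowest for 34, against 30.6% and 22.8% of all genes.

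**Figure D1:**
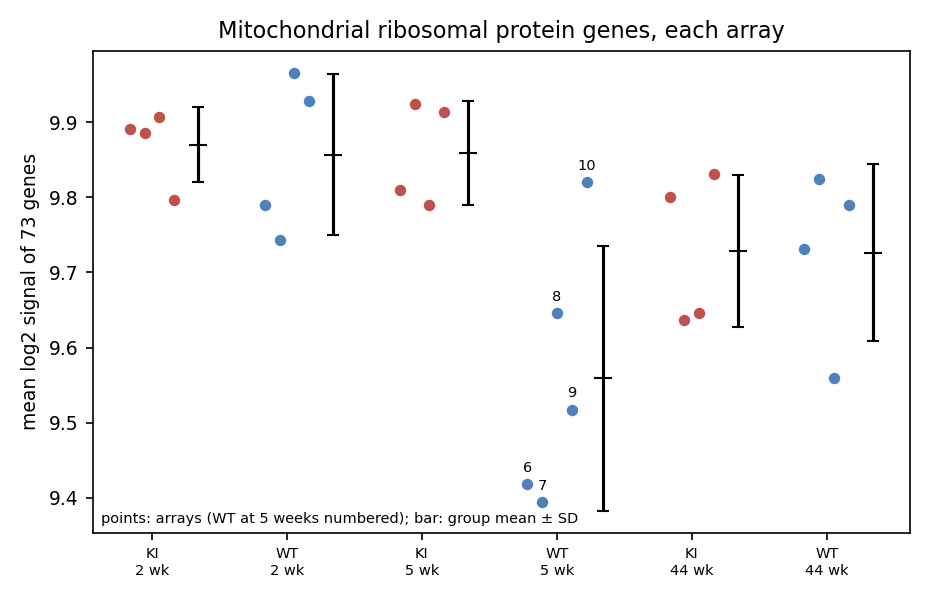
Mean log2 signal of the 73 mitochondrial ribosomal protein genes (vertical axis) on each of the 25 arrays in the 6 groups, KI in red and WT in blue; bars are group mean ± SD (n = 4, or 5 for WT at 5 weeks). WT arrays 6 to 9 at 5 weeks lie between 9.39 and 9.65, below the KI arrays of that age (9.79 to 9.92), and array 10 lies at 9.82.

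At 2 weeks no mitoribosomal gene was called different between KI and WT. The median log2 difference of the 73 genes was 0.01, against -0.02 over all genes tested. The lowest adjusted p was 0.893 (limma, Benjamini-Hochberg over all 11968 genes, threshold 0.05), and 2 of the 73 had an unadjusted p under 0.05. The share of all genes called at this age was likewise 0%, with 613 of the 11968 genes under an unadjusted p of 0.05. Arrays of KI and WT were fully apart for 0 of the 73 genes in the higher direction and for 1, Mrps12, in the lower, against 1.16% and 1.74% of all genes. Among the smallest p-values, Mrpl1, a protein of the L1 stalk through which spent tRNAs leave, had a difference of 0.36 ± 0.17 (SE) and Mrpl11, at the base of the stalk that recruits translation factors, one of -0.16 ± 0.09.

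At 5 weeks 31 of the 73 genes were higher in KI than in WT and 3 were lower. Over all genes tested 14.3% were called higher and 7.75% lower. The median difference of the 73 genes was 0.31 on the log2 scale, on which 1 unit is a 2-fold ratio, against 0.06 over all genes. Of the large-subunit symbols 19 of 46 were called higher and 2 lower, and of the small-subunit symbols 12 of 27 were called higher and 1 lower. After centring each array on its median, which moved the median of all genes to -0.05, 21 genes were called higher and 5 lower. Signals of the 2 genotypes were fully apart for 11 genes that lay higher in KI, among them Mrps22, which was not called, and for 1 that lay lower, against 7.09% and 4.88% of all genes.

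The largest rise was that of Mrps11, a protein of the small subunit's platform. Its log2 signals were 8.92, 8.86, 9.05 and 9.17 in KI, against 7.33, 7.54, 7.94, 7.92 and 8.85 in WT, and the difference was 1.08 ± 0.19 (SE; adjusted p = 0.00226). Every KI array was above every WT array, and WT array 10 lay just below the lowest KI array. Mrps21, another small-subunit protein, had signals of 11.11, 11.18, 11.16 and 11.30 in KI, against 10.14, 10.00, 10.14, 10.08 and 11.12 in WT (difference 0.89 ± 0.16, adjusted p = 0.00215). Here WT array 10 fell within the KI range and the other 4 WT arrays lay far below it. Mrps7, in the head of the small subunit, gave 10.34, 10.40, 10.29 and 10.41 in KI and 9.30, 9.28, 9.68, 9.46 and 10.22 in WT (0.77 ± 0.15, adjusted p = 0.00282). Its arrays did not overlap, and array 10 was again the WT array nearest to KI.

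In the large subunit, Mrpl4, which lines the tunnel through which the new peptide leaves, gave 9.11, 9.00, 9.03 and 9.29 in KI, against 7.67, 7.67, 8.18, 7.78 and 9.05 in WT (1.03 ± 0.20, adjusted p = 0.00306). Mrpl37, a protein found in mitoribosomes but not in bacterial ribosomes, gave 8.89, 8.72, 8.77 and 8.87 in KI, against 7.96, 7.49, 8.04, 7.93 and 8.53 in WT (0.82 ± 0.15, adjusted p = 0.00251). The 2 groups overlapped for Mrpl4 through WT array 10 alone and did not overlap for Mrpl37. Mrpl18, of the central protuberance, gave 10.25, 10.21, 10.10 and 10.27 in KI, against 9.37, 9.51, 9.76, 9.63 and 10.00 in WT (0.56 ± 0.11, adjusted p = 0.00294). For this gene all 5 WT arrays lay below the KI arrays.

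The stalk of the large subunit, which brings translation factors to the ribosome, is built on Mrpl10 and carries copies of Mrpl12, and Mrpl53 sits nearby. Mrpl12 was higher in KI, with 11.45, 11.34, 11.14 and 11.25, against 10.38, 9.61, 10.40, 9.98 and 11.13 in WT (0.99 ± 0.20, adjusted p = 0.00332). Its partners did not pass the test. Mrpl10 differed by 0.21 ± 0.10 (adjusted p = 0.142) and Mrpl53 by -0.21 ± 0.14 (adjusted p = 0.276). The 3 estimates of this small structure thus lay on both sides of 0, and whether they differ from each other was not tested.

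Around the central protuberance, the crown of the large subunit, 4 of 8 measured genes were called higher and none lower, with a median of 0.37. At the peptide exit 1 of 6 was called higher, Mrpl23 with 0.63 ± 0.16 (adjusted p = 0.0116), and 1 lower, Mrpl47, while the median was 0.00. Mrpl44, an exit-side protein with an RNase III-like fold, had -0.15 ± 0.07 (adjusted p = 0.118). Genes with a bacterial counterpart and genes specific to mitochondria both held calls, 22 higher and 2 lower of 45 and 9 higher and 1 lower of 27, with Mrps36, now assigned to the 2-oxoglutarate dehydrogenase complex, in neither list. Of 14 measured genes mutated in inherited human mitochondrial disease, 6 were called higher and 1 lower. Over all genes tested 14.3% were called higher at this age and 7.75% lower. These lists are small, and whether they differ from each other or from those shares was not tested.

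The Mrps18 paralogs differ in place: Mrps18a sits in the large subunit in spite of its name, and Mrps18b in the small one. Mrps18a gave 10.09, 10.34, 10.14 and 10.25 in KI, against 9.17, 9.25, 9.78, 9.26 and 10.23 in WT, and was called higher (0.67 ± 0.17, adjusted p = 0.0104). Mrps18b had a difference of 0.37 ± 0.14 and was not called (adjusted p = 0.0665). Mrps30, also a large-subunit protein with an S name, had -0.12 ± 0.10 (adjusted p = 0.37).

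The 3 genes called lower ran the other way at 5 weeks. Mrps23, a mitochondria-specific protein of the small subunit, gave 10.37, 10.77, 10.71 and 10.44 in KI, against 11.16, 10.99, 11.05, 11.06 and 10.81 in WT (-0.44 ± 0.13, adjusted p = 0.0195). Every KI array lay below every WT array. Mrpl1 gave 7.91, 8.51, 8.21 and 8.16 in KI, against 8.78, 9.48, 8.68, 8.69 and 8.50 in WT (-0.63 ± 0.16, adjusted p = 0.0113), with an overlap of 1 array on each side. Mrpl47, which sits at the peptide exit, gave 4.75, 5.89, 4.94 and 5.20 in KI and 6.04, 6.62, 5.41, 6.39 and 6.10 in WT (-0.91 ± 0.33, adjusted p = 0.0485). It was the dimmest of the 73 genes and its groups overlapped.

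**Figure D2:**
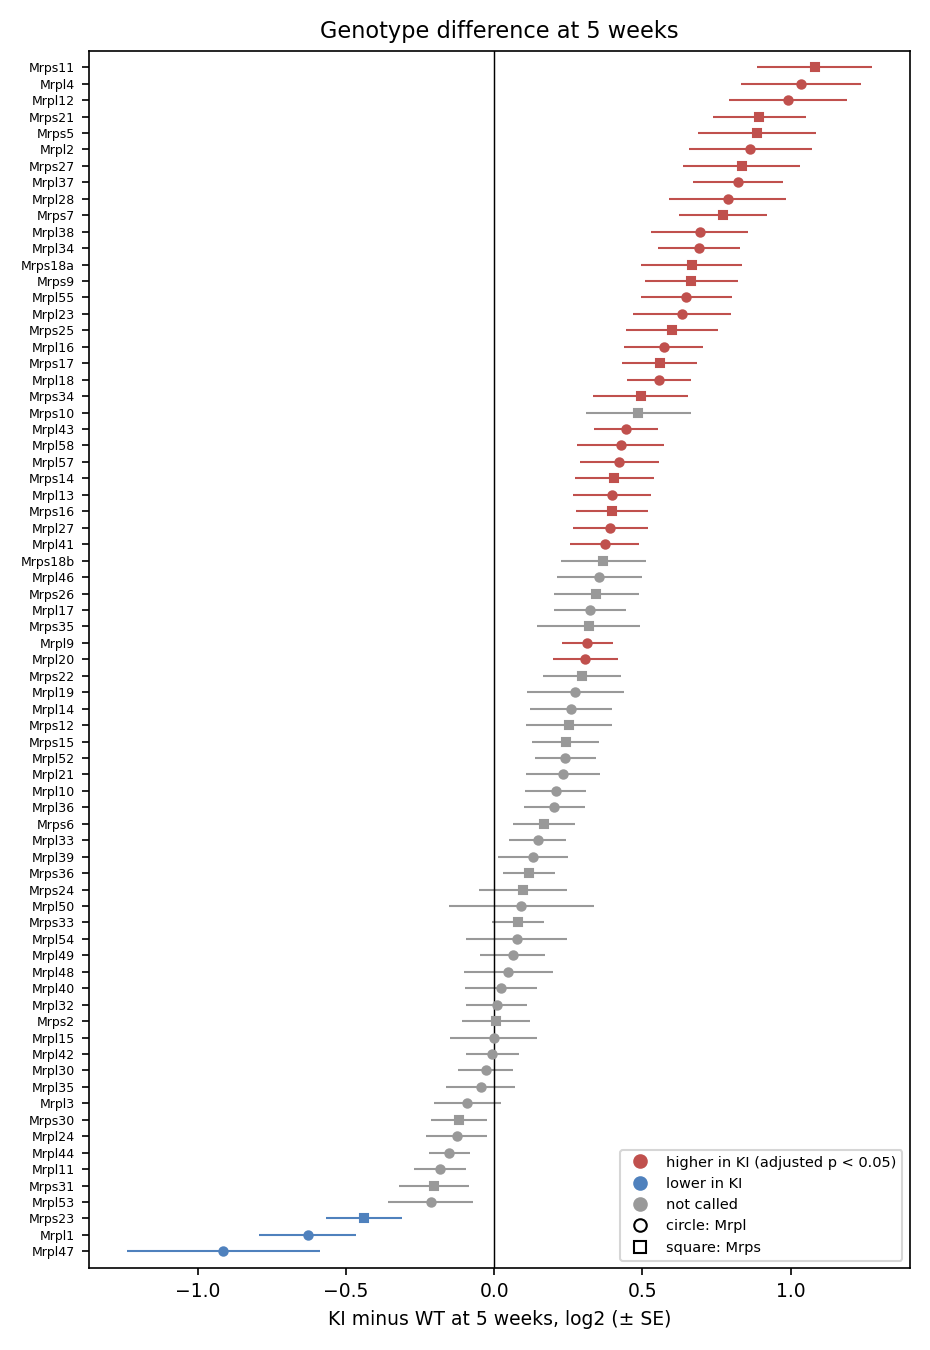
Log2 difference of KI minus WT at 5 weeks (horizontal axis, ± SE; 4 KI and 5 WT arrays) for each of the 73 genes, sorted, with called genes in colour. The 31 genes called higher reach up to 1.08 (Mrps11) and the 3 called lower are Mrps23, Mrpl1 and Mrpl47.

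The number of calls at 5 weeks changed with the arrays and covariates used. Leaving out WT arrays 7, 8 and 9 together kept only WT arrays 6 and 10. None of the 73 genes was then called, and the median difference was 0.24, against 0.31 with all arrays. Arrays 7, 8 and 9 were chosen because an earlier analysis of these data found them to decide calls. With so few WT arrays a difference is also harder to call, so this run cannot show that the calls depend on those arrays in particular. With the tubule marker mean of each array as a covariate none was called and the median was 0.30, with 27 genes at an unadjusted p under 0.05. A fit on the 9 arrays of this age alone called 3. Leaving out WT array 10 raised the count to 44, and leaving out WT array 7 lowered it to 24. Over the same arrays 3 of 10 proximal tubule markers, 2 of 11 distal tubule markers, 5 of 10 endothelial markers, 4 of 6 leukocyte markers and 3 of 6 mesangial markers were also called higher in KI, and 1 of 8 podocyte markers lower. The endothelial marker mean was 7.16 to 7.53 in KI, against 5.76 to 6.86 in WT. The tubule marker means of KI and WT did not overlap at this age, so the covariate run cannot tell the tubule's part from that of genotype. The part of the other cell types in the result was not tested. With the actin 3′ minus 5′ signal as a covariate 26 genes were called, and with the Y-linked signal 32. The shares of all genes called in these runs are not given here, so the counts are not set against them.

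At 44 weeks no mitoribosomal gene was called between KI and WT. The median difference was 0.00, the lowest adjusted p was 0.648 and 3 genes had an unadjusted p under 0.05. Of all genes 0.0167% were called higher and 0.00836% lower. Arrays were fully apart for 1 gene in each direction, against 1.43% of all genes higher and 1.31% lower. Mrps22, a mitochondria-specific small-subunit protein, had 0.37 ± 0.14 (adjusted p = 0.695) and Mrpl41, another mitochondria-specific protein, had -0.26 ± 0.12 (adjusted p = 0.763). With arrays weighted by their quality 2 genes were called, both lower.

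The genotype difference was compared directly between ages. None of the 73 genes was called when the difference at 2 weeks was subtracted from that at 5 weeks (31 with an unadjusted p under 0.05, lowest adjusted p 0.094, limma), where 0.0251% of all genes were called. Likewise none was called when the difference at 5 weeks was subtracted from that at 44 weeks (37 with an unadjusted p under 0.05, lowest adjusted p 0.0971), where 0% of all genes were. Of all 11968 genes, 2242 and 2335 had an unadjusted limma p under 0.05 in these 2 contrasts. So a genotype effect that was particular to 5 weeks was not shown with all 25 arrays. Without WT array 10 the 2 counts were 28 and 33, and with array weights, which gave that array the lowest weight of 0.26, they were 33 and 35. The shares of all genes called in those runs are not given here, so these counts are not set against them. Mrps21 had the values 0.92 ± 0.23 and -0.96 ± 0.23 for these 2 contrasts.

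Averaged over the 3 ages, 6 genes were higher in KI and none lower, against 3.99% of all genes higher and 1.33% lower (5.32% in all). These were Mrpl38 (0.39 ± 0.10, adjusted p = 0.0294), Mrpl37 (0.34 ± 0.09), Mrpl4 (0.43 ± 0.12), Mrps11 (0.41 ± 0.12), Mrps22 (0.28 ± 0.08) and Mrpl9 (0.18 ± 0.05, adjusted p = 0.0467). All 6 had positive estimates at each age, such as 0.16, 0.30 and 0.37 at 2, 5 and 44 weeks for Mrps22 and 0.01, 1.08 and 0.14 for Mrps11. In the same average 4 of 10 proximal tubule, 3 of 10 endothelial and 2 of 6 mesangial markers were called higher, and with the tubule covariate none of the 73 genes was called. After centring 3 were higher and 2 lower. None was called without WT arrays 7, 8 and 9, and leaving out 1 array at a time gave 0 to 24 calls, the highest without WT array 10 and 0 without WT array 2, 16 or 17 or KI array 22 or 26.

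With age, the WT arrays showed a dip at 5 weeks. Their actin 3′ minus 5′ signal also differed by age, with 1.47 to 1.63 log2 at 5 weeks. It was 1.07 to 1.30 at 2 weeks and 0.78 to 1.24 at 44 weeks, so neither age overlapped with 5 weeks. The part of this RNA measure in the dip was not tested beyond its use as a covariate. The comparisons of WT at 5 against 2 weeks, WT at 44 against 5 weeks and KI against WT at 5 weeks share the same 5 WT arrays, so they are not independent. In WT at 5 against 2 weeks 29 genes were lower and 5 higher, where 21.7% of all genes were lower and 12.2% higher, and the median was -0.26 against -0.06 over all genes. Arrays were fully apart for 11 genes lower and 4 higher, against 9.32% and 7.42% of all genes. After centring each array 22 genes were lower and 10 higher, with a median of all genes of 0.09. In WT at 44 against 5 weeks 16 genes were higher and 3 lower, where 11.3% of all genes were higher and 8.85% lower, and the median was 0.16 against 0.05 (20.1% of all genes were called in all). Arrays were fully apart for 5 genes higher and 2 lower, against 5.77% and 6.38% of all genes. After centring 14 were higher and 5 lower. Without WT arrays 7, 8 and 9 the 2 counts of calls were 9 and 3. In WT at 5 against 2 weeks 7 of 8 podocyte markers were called higher and 5 of 6 mesangial and smooth muscle markers lower, with a mesangial mean of 6.95 to 8.43 at 5 weeks, against 8.14 to 8.97 at 2 weeks, and the part of these cells in the result was not tested. In WT at 44 against 5 weeks 4 of 6 leukocyte and 5 of 11 distal tubule markers were called higher and 2 of 6 mesangial markers lower, and 7 of the 73 genes were called with the tubule covariate and 6 with the actin one.

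Mrps11 had the smallest p in WT at 5 against 2 weeks, with 7.33, 7.54, 7.94, 7.92 and 8.85 at 5 weeks, against 9.07, 9.18, 9.48 and 9.01 at 2 weeks (-1.27 ± 0.19, adjusted p = 8e-05). At 44 weeks its WT signals were 8.21, 8.49, 8.23 and 8.48, and the difference from 5 weeks of 0.44 ± 0.19 was not called (adjusted p = 0.117). Mrpl18 went both ways past the threshold, with -0.63 ± 0.11 at 5 against 2 weeks (adjusted p = 0.000224) and 0.79 ± 0.11 at 44 against 5 weeks (adjusted p = 6.14e-05). Its WT signals at 44 weeks were 10.52, 10.63, 10.29 and 10.35, against 9.37, 9.51, 9.76, 9.63 and 10.00 at 5 weeks, with no overlap.

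Mrpl2, close to the peptidyl transferase centre, showed the same pair of calls, -1.16 ± 0.21 (adjusted p = 0.000289) and 1.04 ± 0.21 (adjusted p = 0.00182). Its 5 WT signals at 5 weeks were 8.71, 9.02, 8.94, 8.95 and 10.23, so array 10 was at the level of the other ages. Mrpl34, Mrpl4 and Mrps21 were also lower at 5 weeks than at 2 weeks in WT (-0.85 ± 0.14, -1.23 ± 0.20 and -0.86 ± 0.16). Among the genes higher in WT at 44 than at 5 weeks were Mrpl27, near the peptidyl transferase centre, with 0.66 ± 0.13 (adjusted p = 0.0013), Mrpl9 with 0.35 ± 0.09, Mrpl37 with 0.62 ± 0.15 and Mrpl23 with 0.66 ± 0.16.

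The genes that ran opposite to the others in WT were Mrpl1 (0.86 ± 0.16, adjusted p = 0.000504), Mrps23 (0.53 ± 0.13, adjusted p = 0.00301), Mrpl44 (0.24 ± 0.07, adjusted p = 0.0117), Mrps30 (0.26 ± 0.10, adjusted p = 0.0377) and Mrps6 (0.27 ± 0.10, adjusted p = 0.0465), all higher at 5 than at 2 weeks. Mrpl44 gave 11.75, 11.69, 11.58, 11.58 and 11.55 in WT at 5 weeks, against 11.32, 11.41, 11.43 and 11.40 at 2 weeks, with no overlap. At 44 weeks its WT signals were 11.01, 11.03, 11.07 and 11.13, lower than at 5 weeks without overlap (-0.57 ± 0.07, adjusted p = 1.97e-05). The other probe set of Mrpl44, also bright with a mean of 10.29, showed the fall from 5 to 44 weeks (-0.58). It hardly showed the rise from 2 to 5 weeks (0.02). Mrps23 and Mrpl53 were the other genes lower in WT at 44 than at 5 weeks (-0.56 ± 0.13 and -0.62 ± 0.14).

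**Figure D3:**
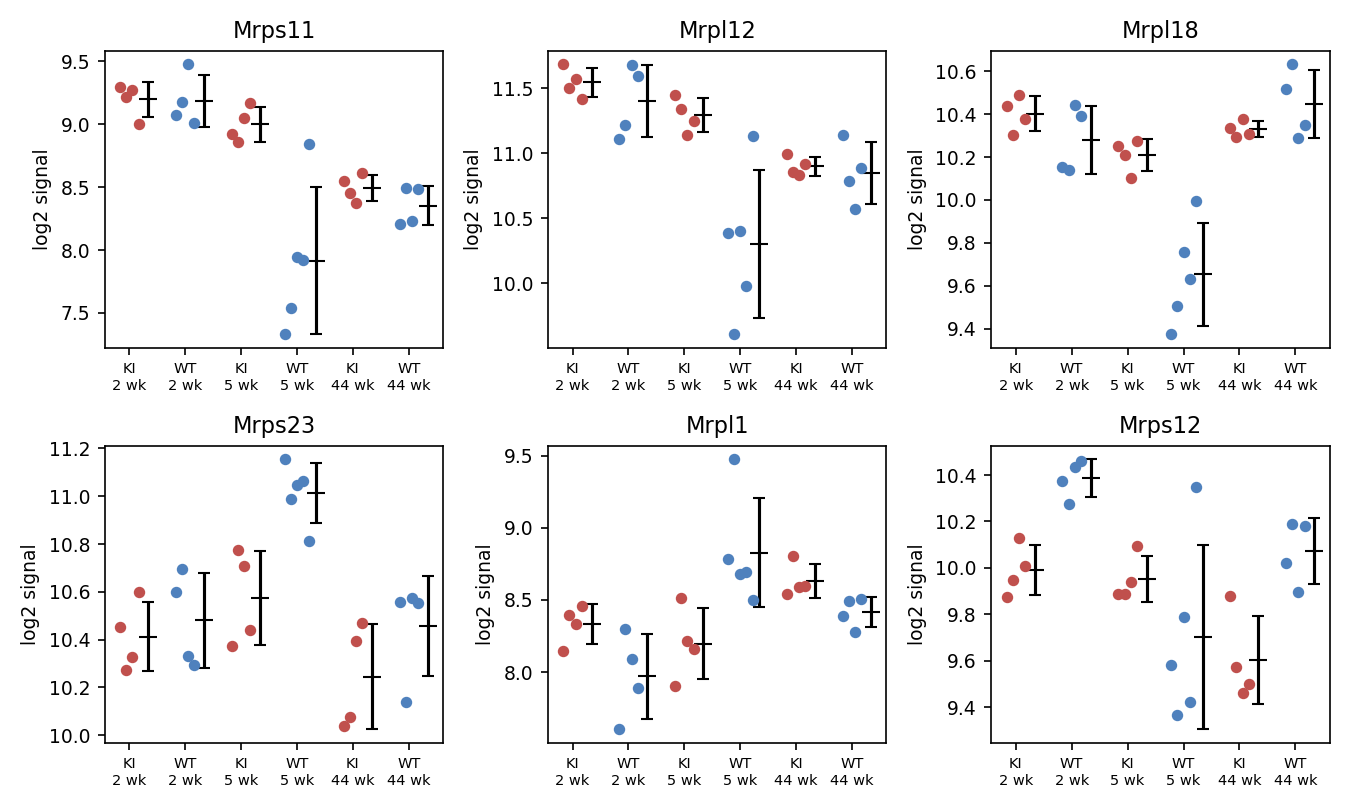
Log2 signal (vertical axis) of 6 mitoribosomal genes on each array in the 6 groups, KI in red and WT in blue; bars are group mean ± SD (n = 4, or 5 for WT at 5 weeks). Mrps11, Mrpl12 and Mrpl18 are low on WT arrays at 5 weeks, Mrps23 and Mrpl1 are high there, and the KI signals of Mrps12 lie below WT without overlap at 2 and 44 weeks.

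The KI arrays showed no such dip at 5 weeks. In KI at 5 against 2 weeks 1 gene was higher and 1 lower, where 5.4% of all genes were higher and 8.29% lower, and the median was 0.01. After centring 3 were higher and 1 lower. Of the markers, 5 of 8 for podocytes were called higher and 2 of 6 for the mesangium lower, and their part was not tested. Mrps6, of the small subunit's platform, gave 11.86, 11.90, 11.90 and 11.92 at 5 weeks, against 11.38, 11.42, 11.53 and 11.49 at 2 weeks (0.44 ± 0.11, adjusted p = 0.0103). Mrpl50, a mitochondria-specific large-subunit protein, gave 8.64, 9.20, 8.36 and 9.25 at 5 weeks, against 9.66, 9.89, 10.25 and 9.73 at 2 weeks (-1.02 ± 0.26, adjusted p = 0.0113). Neither pair of groups overlapped. Mrpl36, the third by p, had 0.31 ± 0.11 (adjusted p = 0.0544). The 2 genes were also called in WT at 5 against 2 weeks in the same direction, Mrps6 with 0.27 ± 0.10 and Mrpl50 with -0.79 ± 0.24.

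In KI at 44 against 5 weeks 11 genes were lower and 1 higher, where 8.64% of all genes were lower and 8.11% higher, and the median was -0.13 against -0.01 over all genes. Arrays were fully apart for 21 genes lower and 2 higher, against 13.3% and 12.5% of all genes. Over the same arrays 3 of 6 mesangial and 2 of 10 endothelial markers were called lower, with a mesangial mean of 7.74 to 7.99 at 44 weeks, against 8.47 to 8.78 at 5 weeks, and their part in the result was not tested. Mrpl57, a mitochondria-specific large-subunit protein, gave 9.15, 9.03, 8.81 and 9.33 at 44 weeks, against 9.73, 9.68, 9.63 and 9.94 at 5 weeks (-0.67 ± 0.14, adjusted p = 0.00349). Mrps9 gave 8.62, 9.07, 9.08 and 8.80 at 44 weeks, against 9.54, 9.50, 9.69 and 9.93 at 5 weeks (-0.77 ± 0.17, adjusted p = 0.00353). Neither gene's groups overlapped in the probe set used. Another bright probe set of Mrpl57, with a mean of 7.56, had the opposite sign in this comparison. Mrps15 (-0.54 ± 0.12), Mrps14 (-0.62 ± 0.14), Mrpl20 (-0.49 ± 0.12) and Mrpl44 (-0.31 ± 0.07) followed. A second bright probe set of Mrps14, with a mean of 8.12, hardly changed between these ages. Mrpl47 was the gene that rose (1.12 ± 0.34, adjusted p = 0.0296), from dim signals. The count was 7 to 21 when 1 array was left out, lowest without KI array 25 at 5 weeks or KI array 32 at 44 weeks and highest without WT array 10.

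**Figure D4:**
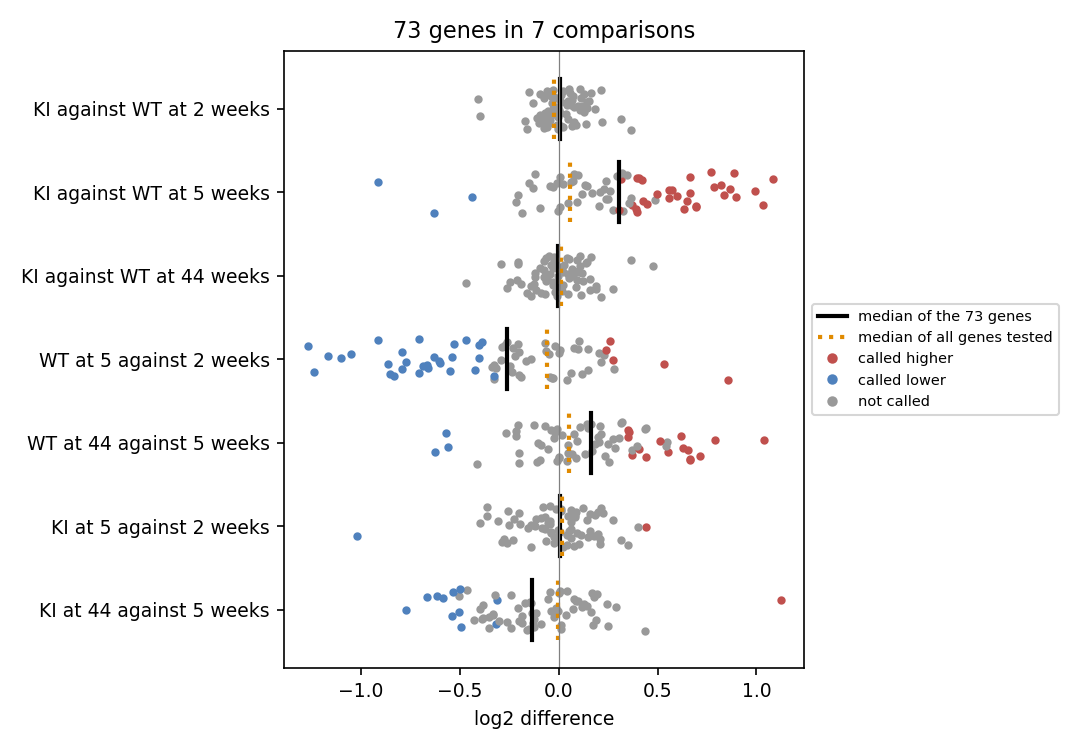
Log2 difference (horizontal axis) of each of the 73 genes in 7 comparisons; black bars mark the median of the 73 genes and dotted orange bars that of all genes tested. The points shift right in KI against WT at 5 weeks (median 0.31) and left in WT at 5 against 2 weeks (median -0.26), 2 comparisons that share the WT arrays at 5 weeks.

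The wider mitochondrial translation machinery was set beside these genes at 5 weeks, when 14.3% of all genes were called higher in KI and 7.75% lower. Genes are named in order of p. Of 4 mitoribosomal proteins with other symbols, Gadd45gip1 (0.66 ± 0.15, adjusted p = 0.00634) and Dap3 (0.60 ± 0.16, adjusted p = 0.0116) were higher in KI and Chchd1 and Ptcd3 were not called. Of 10 translation factors 4 were called higher and none lower (median 0.40), first Tufm, the mitochondrial elongation factor Tu (1.23 ± 0.24, adjusted p = 0.00282), Gfm2 and Oxa1l, which inserts new peptides into the inner membrane. Of 18 mitochondrial aminoacyl-tRNA synthetases 6 were called higher and none lower (median 0.41), first Sars2 (0.82 ± 0.17), Aars2 (0.61 ± 0.13) and Fars2 (0.79 ± 0.20). Of 23 assembly factors 6 were called higher and none lower, among them the RNA helicase Dhx30 (0.88 ± 0.17) and the GTPase Mtg1 (0.73 ± 0.16), yet the median was 0.03.

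The nuclear-encoded respiratory chain and ATP synthase subunits, whose partners the mitoribosome makes, had 30 of 78 genes called higher and none lower (median 0.22), with the smallest p for Atp5o (0.57 ± 0.10), Cox6b1 (0.52 ± 0.09) and Atp5j2 (0.59 ± 0.11). Of 68 cytosolic ribosomal proteins 17 were called higher and 1 lower, with a median of 0.07 near that of all genes. Of 13 genes of mitochondrial DNA upkeep and transcription, shares close to those of all genes were called: 2 were higher, the tRNA-processing enzyme Elac2 (0.97 ± 0.17) and the RNA polymerase Polrmt (0.88 ± 0.27), and 1 was lower, the DNA-binding protein Ssbp1 (-0.37 ± 0.11). In WT at 5 against 2 weeks, which uses the same WT arrays, 47 of the 78 respiratory chain genes and 23 of the 68 cytosolic ribosomal genes were called lower, and 1 of each higher. In that comparison 21.7% of all genes were called lower and 12.2% higher.

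Nuclear regulators known to act on promoters of such genes did not all move in 1 direction, as far as their values are given here. At 5 weeks Gabpa (-0.94 ± 0.24, adjusted p = 0.0101) and Gabpb1 (-0.64 ± 0.21, adjusted p = 0.03), the subunits of the ETS-family factor GABP, and Yy1 (-0.47 ± 0.12, adjusted p = 0.0114) were lower in KI than in WT. The coactivator Ppargc1b was higher (0.88 ± 0.30, adjusted p = 0.0384), and Nrf1 had a difference of 0.06 ± 0.15 (adjusted p = 0.788). Over all genes tested 14.3% were called higher in KI and 7.75% lower at this age. The list of regulators also held Ppargc1a, Pprc1, Myc and Esrra, whose values are not given here. The part of any regulator in the mitoribosomal differences was not tested.

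The promoters of the mitoribosomal genes were searched for the letters that these factors are known to bind, since the members shared differences on the same arrays. RefSeq windows of 250 bases before to 50 after the start (GRCm38.p6) were matched for 65 of the 73 genes. The letters CCGGAAGT of the ETS family were in 9 windows, or 13.8%, against 5.26% of 17427 other protein-coding genes, with both strands searched. The NRF1 palindrome, in capitals in the Mrpl32 stretch, was in 3 windows, or 4.62%, against 1.31%, and a YY1 site, ATGGCGG preceded by AAG, in 5, or 7.69%, against 1.25%. CCAAT was in 41.5% against 39% and TATAAA in 6.15% against 13.4%. The windows had a median GC content of 58.7% against 56.3% and 21 CpGs against 13. A match is a description of the letters and was not tied to binding. The stretches below give the 120 bases before the start of the RefSeq gene for 1 gene with the NRF1 letters and 2 with the ETS letters, motifs in capitals on either strand, 5′ to 3′ on the gene's own strand.
Mrpl32, chr13:14613038-14613157, minus strand: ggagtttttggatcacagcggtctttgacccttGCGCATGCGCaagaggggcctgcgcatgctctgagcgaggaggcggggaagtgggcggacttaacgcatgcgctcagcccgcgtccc
Mrps22, chr9:98601680-98601799, minus strand: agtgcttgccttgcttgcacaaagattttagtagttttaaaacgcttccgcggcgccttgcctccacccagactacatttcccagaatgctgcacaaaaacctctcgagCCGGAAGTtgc
Mrps26, chr2:130563637-130563756, plus strand: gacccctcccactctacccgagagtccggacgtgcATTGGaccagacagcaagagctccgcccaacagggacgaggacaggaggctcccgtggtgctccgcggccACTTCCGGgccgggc
In Mrps26 the first capitals are a CCAAT box read on the other strand. None of these 3 genes was called at 5 weeks, with limma differences of 0.30 ± 0.13 for Mrps22, 0.34 ± 0.14 for Mrps26 and 0.01 ± 0.10 for Mrpl32. They do not stand for all genes with these letters. Of the windows searched, 27 were of genes called higher at 5 weeks and 35 of genes not called. The ETS letters were in 4 and 5 of these, the NRF1 palindrome in 1 and 2 and the YY1 letters in 4 and 1. Whether these shares differ was not tested.

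Many of the promoters face another gene. A protein-coding gene started on the opposite strand within 1000 bases upstream of 22 of the 65 genes, or 33.8%, against 7.94% of other protein-coding genes. Mrps11 (chr7:78783131-78792988) and Mrpl46 (chr7:78775341-78783089) are such a pair, divided by only 41 bases (chr7:78783090-78783130, plus strand):
Mrps11 and Mrpl46: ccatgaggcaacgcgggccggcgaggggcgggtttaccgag
Mrps11 rose by 1.08 at 5 weeks, whereas Mrpl46, of the central protuberance, had 9.50, 9.51, 9.45 and 9.42 in KI, against 8.73, 9.04, 9.22, 9.15 and 9.45 in WT (0.35 ± 0.14, adjusted p = 0.0792). The groups for Mrpl46 overlapped through WT array 10 alone. Both genes were lower in WT at 5 than at 2 weeks, Mrpl46 by -0.42 ± 0.14 (adjusted p = 0.0274). In 18 other pairs, of a mitoribosomal and another gene with both tested, the mitoribosomal gene was called at 5 weeks in 10, its partner in 3 and both in 2, where 22% of all genes were called, and the 2 estimates had the same sign in 12.

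Mrps12, the small-subunit protein of the decoding centre, lies on the chromosome of the mutated gene, 151 kb from Actn4 (chr7:28739641-28741821 and chr7:28893248-28962351 in GRCm38.p6). Its promoter stretch is shown because 3 CCAAT boxes, in capitals, stand in it and because the gene shares its upstream region with Sars2.
Mrps12, chr7:28741822-28741941, minus strand: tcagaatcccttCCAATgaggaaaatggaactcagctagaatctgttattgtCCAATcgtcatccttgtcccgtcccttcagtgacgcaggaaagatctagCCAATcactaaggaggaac
At 2 weeks Mrps12 gave 9.87, 9.95, 10.13 and 10.01 in KI, against 10.37, 10.28, 10.44 and 10.46 in WT, and at 44 weeks 9.88, 9.57, 9.46 and 9.50 in KI, against 10.02, 10.19, 9.90 and 10.18 in WT. The KI arrays lay below the WT arrays at both ages without overlap. The differences of -0.40 ± 0.15 and -0.47 ± 0.15 were not called (adjusted p = 0.893 and 0.648), and KI arrays lay wholly below WT in 1.74% and 1.31% of all genes at these ages. At 5 weeks the difference had the other sign, 0.25 ± 0.15 (adjusted p = 0.211). Sars2, the mitochondrial seryl-tRNA synthetase that starts 147 bases away on the opposite strand, had 0.30, 0.82 ± 0.17 and 0.10 at 2, 5 and 44 weeks. Whether the alleles around Actn4 differ between KI and WT was not tested.

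The genes moved together from array to array within groups. After subtraction of group means, the median correlation between pairs of the 73 genes over the 25 arrays was 0.35, against 0.04 between these genes and all other genes tested. It was 0.34 among large-subunit symbols, 0.41 among small-subunit symbols, 0.31 with the respiratory chain and 0.10 with cytosolic ribosomal proteins. These are descriptions over 1 set of arrays, in which the WT arrays at 5 weeks spread most in the mean of the 73 genes, and carry no p. Mrps18a (0.90), Mrps34 (0.89) and Mrpl55 (0.88) followed the mean of the other genes most closely. For 48 of the 73 genes this correlation was over 0.5, and for 6 it was below 0. These 6 were Mrps23 (-0.45), Mrpl44 (-0.43), Mrpl24 (-0.36), Mrpl1 (-0.33), Mrpl48 (-0.32) and Mrps30 (-0.13), and 4 of them were the genes called higher in WT at 5 against 2 weeks other than Mrps6. Across the 73 genes the difference at 5 weeks had a rank correlation of 0.71 with this measure. Both values draw on the WT arrays at 5 weeks, so they are not independent and the correlation is partly built in. The rank correlation was -0.11 with gene length and -0.10 with mean signal.

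Probe sets of the same gene did not always agree. Of the 73 genes 38 had more than 1 single-symbol probe set, and in 18 of these another probe set had the opposite sign at 5 weeks. Some of those were dimmer than the limit of 4.60. Among the 31 genes with more than 1 probe set above it, 12 disagreed in sign. The widest gaps were those of Mrps5, a protein near the mRNA entry, with 0.89 in the probe set used and -0.88 in another, Mrpl57 with 0.42 and -0.83, and Mrps14 with 0.41 and -0.47, all from probe sets above the limit. For Mrpl1 (-0.63) the other bright probe set gave -0.21, and only one at a mean of 4.14 had the opposite sign (0.15). The second probe set of Mrps11, with a mean of 3.18, was too dim to read. When all probe sets of a gene were averaged, 24 genes were called higher at 5 weeks and none lower. Signal was brightest for Mrpl52 (11.84), Mrps6 (11.73), Mrpl44 (11.36), Mrpl41 (11.31) and Mrpl11 (11.20) and dimmest for Mrpl47 (5.84), Mrps5 (6.93) and Mrps27 (7.73), as means over all arrays of different probe sets, which do not rank the transcripts by abundance. Mrps27, an RNA-binding small-subunit protein, was higher in KI at 5 weeks (0.84 ± 0.20, adjusted p = 0.00714), and Mrpl52 (0.24 ± 0.10, adjusted p = 0.0924), Mrpl41 (0.37 ± 0.12, adjusted p = 0.0269) and Mrpl11 (-0.18 ± 0.09, adjusted p = 0.132) had smaller differences.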

How the data were processed

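The deposited table holds log2 signals of 45141 probe sets on 25 arrays, made by the authors from polysomal RNA after 1 round of NuGEN amplification, per the labels. Summarization, background correction and normalization are not given in the sources used here. Array medians lay between 4.82 and 4.99. No depth exists for arrays, and precision is limited by their number. Gene symbols came from GEO's platform annotation, in which 28898 probe sets had 1 symbol, 551 several and 15692 were not listed. Each gene took its brightest single-symbol probe set. Genes in the lowest 30% of mean signal (under 4.60) were left out. limma 3.58.1 in R 4.3.3 fitted 6 group means to 11968 genes (19 residual and 3.05 prior degrees of freedom), with Benjamini-Hochberg adjustment over all of them at 0.05; the script was tested on simulated data. Signed differences are KI minus WT or later minus earlier age. Named genes were, per comparison, up to 6 each way by p among those called, or the 3 smallest p where under 3 were called, the brightest 5 and dimmest 3, the 4 with the widest disagreement between probe sets, and the Mrps18 and stalk proteins; others named (Mrpl46, Mrps26 and Mrpl32 among them) were chosen after their values were seen. The members and lists were chosen with earlier results of these data known. Alternatives covered the scaling, filter, probe set rule, prior, array weights, covariates and arrays left out.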

Additional observations from a re-analysis of the deposited data

Results flagged for a closer look

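Outlying arrays were looked for in every group of 4 or 5 arrays for 38 measures (228 group tests). In 15 of these tests an array was farther from its group than Dixon's 95% limit, and the same array could be flagged for several genes. Chance flags about 1 in 20 groups. Of these flags, 5 fell on WT array 10 at 5 weeks: Mrpl41 at 11.49, Mrps21 at 11.12 and Mrpl2 at 10.23 were the highest of their group, and Mrps30 at 10.32 and Mrpl50 at 8.26 the lowest. At 2 weeks, KI array 19 was high in Mrpl37 (9.09), KI array 21 high in Mrpl20 (11.23) and KI array 22 low in Mrpl2 (10.24), while WT array 1 was high in Mrps6 (11.74) and low in Mrpl50 (8.64) and WT array 2 was low in Mrpl27 (9.86). At 44 weeks, KI array 31 was high in Mrpl9 (9.31), KI array 34 high in Mrpl53 (9.17) and KI array 33 low in Mrpl38 (8.33), while WT array 16 was low in Mrps23 (10.14).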

How the results depend on the processing

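No paired analysis was possible because the groups share no replicate numbers. Of 34 genes called between KI and WT at 5 weeks, 0 stayed called with the tubule marker covariate, 0 without WT arrays 7, 8 and 9 (chosen because an earlier analysis of these data found them to decide calls) and 3 with only the arrays compared; leaving out 1 array gave 24 to 44. Centring each array gave a median of all genes of -0.05 there, with 0.06 as reported, and 21 higher and 5 lower, and in WT at 5 against 2 weeks gave 0.09, with -0.06 as reported, and 10 higher and 22 lower of the 73. The counts at 2 weeks were 0 in every alternative run, and at 44 weeks 0 except 2 with array weights. Averaged over ages, 6 calls became 3 with quantile normalization, 3 with no filter, 10 with the lowest 50% left out, 22 with array weights, 15 with the Gapdh covariate, and 0 with the tubule covariate or without WT arrays 7, 8 and 9; leaving out 1 array gave 0 to 24. WT at 5 against 2 weeks had 34 calls, 9 without WT arrays 7, 8 and 9, 19 with only the arrays compared and 26 to 46 with 1 array left out. WT at 44 against 5 weeks had 19, with 31 by array weights, 7 by the tubule covariate, 6 by the actin 3′ minus 5′ covariate, 3 without WT arrays 7, 8 and 9, 4 with only the arrays compared and 14 to 30 with 1 array left out. KI at 5 against 2 weeks had 2, with 4 after centring, 12 by array weights, 7 with only the arrays compared and 1 to 5 with 1 left out. KI at 44 against 5 weeks had 12, with 25 by array weights and 7 to 21 with 1 left out. The 2 contrasts between ages had 0, with 33 and 35 by array weights and 0 to 28 and 0 to 33 with 1 left out. Of 2690 alternatives for 71 named differences 2376 kept direction and call, 29 passed the threshold newly, 282 no longer passed and 3 reversed: Mrpl53 at 5 weeks was 0.031 without WT arrays 7, 8 and 9, and Mrpl57 and Mrps14 were -0.205 and -0.076 with the mean of all probe sets. Calls over all genes in these alternatives are not given here. Fewer arrays make a difference harder to call, yet at 5 weeks the count was highest, 44, without WT array 10. The tubule marker means of KI and WT did not overlap at 5 weeks, so that covariate cannot tell the tubule's part from that of genotype there. The cause of the moves was not tested.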
